A study of Mus musculus with 3 samples.

Results

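Xbp1 and 9 genes of protein folding in the endoplasmic reticulum (ER) were followed through the immune cells of newborn mouse liver: Hspa5, Hsp90b1, Calr, Pdia4, Dnajb9, Sdf2l1, Herpud1, Creld2 and Manf. They were taken by gene symbol, and all 10 were among the 19059 genes of the count matrices. The cells were viable CD45+ cells sorted from livers of mice at postnatal day 0, of genotype pex2-/- (KO), pex2-/+ (Het) and pex2+/+ (WT), with 1 library per genotype. Pex2 encodes a membrane protein needed for peroxisome assembly, and a mouse without it is a model of Zellweger disease. Each library was made with gene-specific probes on fixed cells, so a value counts the probed part of a transcript and does not separate spliced from unspliced Xbp1 mRNA. The sources used here do not say how many animals went into a library, of which sex or strain, or how the null allele was made.

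The ER folds the proteins that a cell secretes or stores in granules. When unfolded proteins accumulate there, the sensor IRE1 cuts Xbp1 mRNA and the spliced product encodes a transcription factor that raises genes for chaperones, disulfide isomerases, translocation and degradation. Precursors of granulocytes make large amounts of granule proteases, and XBP1 is known as a factor that secretory cells such as plasma cells and eosinophil precursors need.

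The libraries held 8245, 8000 and 9600 barcodes with 186295183, 144589956 and 96629431 UMIs (single captured molecules) in KO, Het and WT, and a median cell had 19348, 15558.5 and 8218.5 UMIs. Pex2 itself was at 0.0107 counts per 1000000 (CPM) in the KO library, at 53.3 CPM in the library labelled Het and at 23.6 CPM in the library labelled WT, so that order goes against the last 2 labels. The Y-linked gene Ddx3y had 3 UMIs in KO, 2 in Het and 7956 in WT, so the library labelled WT stood apart in that too. No full barcode was shared between libraries, and 961 (KO and Het), 1184 (KO and WT) and 1147 (Het and WT) bead barcodes were used in both of a pair. Classes were gated per cell on summed marker genes that hold no member, and are called like the cell type the markers name. Promyelocyte-like cells (Elane, Mpo, Prtn3, Ctsg, Ms4a3) numbered 189, 329 and 331 in KO, Het and WT. Mature neutrophil-like cells (Cxcr2, Csf3r, Il1b and 5 others) numbered 438, 289 and 280, and 17.8%, 11.8% and 34.6% of them lay within 1.2-fold of the gate. Mature cells were shallow, with a median of 4927, 3817 and 3593.5 UMIs against 47151, 34588 and 21000 in promyelocyte-like cells.

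Hspa5, Hsp90b1, Calr and Creld2 share a sequence in front of their start, which is shown before the levels. The ER stress response element (ERSE), with the letters CCAAT, 9 bases of any kind and CCACG, is the element through which ATF6 and XBP1 are known to act, and was searched on both strands of the 250 bases before each RefSeq start (GRCm38.p6). It was found in 4 of the 9 members that the table holds, Hspa5, Hsp90b1, Calr and Creld2, against 37 of 32851 promoters in all (0.113%). Hsp90b1 had 2 matches. ERSE-II (ATTGG, 1 base of any kind and CCACG) was found in Herpud1 alone among the members, against 10 of 32851 promoters (0.0304%). The UPR element TGACGTGG was in none of the 9, against 0.563% of promoters. The core CCACG, which also lies within both longer elements, was in 7 of 9 members, against 28.3% of promoters. The members were chosen as ER chaperones and XBP1 targets, and the elements are known for acting on such genes. The shares among members are thus a description and no test. The promoters below are written 5′ to 3′ on the strand of the gene, with ERSE or ERSE-II in capitals. Sdf2l1 is shown beside them as the member with the largest stage difference, and none of the 3 longer elements is in this window. None was found for Pdia4, Xbp1 or Dnajb9 either, and Manf had no promoter to search. Sdf2l1, Pdia4 and Manf moved with the ERSE genes in the comparison that follows, and a link between element and level was not tested.
Hspa5, chr2:34771840-34772089, plus strand: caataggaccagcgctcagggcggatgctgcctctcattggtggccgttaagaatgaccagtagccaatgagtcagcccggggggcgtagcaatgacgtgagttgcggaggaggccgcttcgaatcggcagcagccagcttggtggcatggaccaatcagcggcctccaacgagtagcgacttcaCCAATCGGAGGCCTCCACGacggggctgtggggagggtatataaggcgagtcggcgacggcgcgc
Hsp90b1, chr10:86705445-86705694, minus strand: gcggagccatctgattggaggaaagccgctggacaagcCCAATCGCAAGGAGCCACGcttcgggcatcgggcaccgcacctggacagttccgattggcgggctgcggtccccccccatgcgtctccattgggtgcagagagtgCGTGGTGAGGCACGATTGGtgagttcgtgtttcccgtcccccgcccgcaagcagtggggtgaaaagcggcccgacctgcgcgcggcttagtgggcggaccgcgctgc
Calr, chr8:84846932-84847181, minus strand: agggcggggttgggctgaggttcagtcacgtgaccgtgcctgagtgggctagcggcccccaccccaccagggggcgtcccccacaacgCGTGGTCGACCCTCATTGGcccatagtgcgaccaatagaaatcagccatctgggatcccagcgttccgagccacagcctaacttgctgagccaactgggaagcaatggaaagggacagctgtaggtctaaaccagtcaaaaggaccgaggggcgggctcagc
Creld2, chr15:88819396-88819645, plus strand: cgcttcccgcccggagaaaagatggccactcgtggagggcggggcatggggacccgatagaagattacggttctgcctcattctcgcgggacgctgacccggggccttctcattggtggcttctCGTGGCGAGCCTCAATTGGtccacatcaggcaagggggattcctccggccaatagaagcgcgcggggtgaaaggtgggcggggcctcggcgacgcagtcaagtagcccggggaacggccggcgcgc
Herpud1, chr8:94386179-94386428, plus strand: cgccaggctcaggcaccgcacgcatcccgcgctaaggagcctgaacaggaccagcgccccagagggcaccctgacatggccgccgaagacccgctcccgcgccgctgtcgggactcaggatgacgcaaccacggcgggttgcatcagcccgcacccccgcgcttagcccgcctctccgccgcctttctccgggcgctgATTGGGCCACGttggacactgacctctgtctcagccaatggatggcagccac
Sdf2l1, chr16:17132384-17132633, minus strand: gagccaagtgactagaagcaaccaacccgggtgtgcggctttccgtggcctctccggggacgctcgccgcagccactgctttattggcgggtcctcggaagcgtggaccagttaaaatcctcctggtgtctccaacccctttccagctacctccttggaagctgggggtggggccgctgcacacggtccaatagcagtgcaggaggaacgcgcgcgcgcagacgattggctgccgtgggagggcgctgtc

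The first question was how these genes differ between the secretory precursors of neutrophils and the mature cells. In promyelocyte-like cells 8 of 10 members were higher than in mature neutrophil-like cells of the same libraries and none was lower (edgeR quasi-likelihood test on UMIs summed per class, library as block, 3 libraries, Benjamini-Hochberg adjusted p under 0.05). Of all 8006 genes tested, 61.8% were higher and 17.7% lower, so the share of members called is close to the background and is not a result about the members. The members' median log2 ratio was 3.57 and the median of all genes tested 1.23. The libraries are the replicates of this stage difference, and since they differ in genotype, the p-values measure the spread between these 3 samples. With TMM factors 42.1% of genes were higher and 33.9% lower, the median of all genes was 0.24 and that of the members 2.59.

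Sdf2l1, a partner of ER-resident J-domain proteins in the BiP chaperone complex, showed the widest range. It had 292.3, 457.1 and 428.8 CPM in promyelocyte-like cells of the KO, Het and WT libraries, against 0.0, 1.64 and 2.91 CPM in mature neutrophil-like cells. The mature values rest on 0, 2 and 3 UMIs, and 0 UMIs in the KO cells allow up to 1.28 CPM (3 counts). The log2 ratio was 8.35 ± 0.43 (SE, adjusted p = 2.5e-07, edgeR), a fitted value that depends on the count added to such low sums. The SE of each edgeR estimate given here is its absolute value over the square root of the test's F statistic. For Sdf2l1, with so few mature UMIs, it may understate the uncertainty. Every promyelocyte-like value lay above every mature value.

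The chaperones proper were next. Hspa5 encodes BiP, the HSP70 of the ER lumen, and carries an ERSE close to its start. Its level was 223.7, 385.2 and 307.1 CPM in promyelocyte-like cells of KO, Het and WT, against 69.99, 59.06 and 22.29 CPM in mature cells, a log2 ratio of 2.61 ± 0.34 (adjusted p = 4.9e-05, edgeR). Hsp90b1, the ER member of the HSP90 family and a chaperone of Toll-like receptors and integrins, had 232.6, 306.0 and 306.7 CPM against 18.35, 11.48 and 18.42 CPM. Its log2 ratio was 4.09 ± 0.26. Calr encodes calreticulin, a lectin that holds unfinished glycoproteins. It had 317.4, 524.0 and 486.0 CPM in promyelocyte-like cells and 23.9, 23.8 and 21.3 CPM in mature cells, and its log2 ratio was 4.20 ± 0.24. Hsp90b1 and Calr thus had narrow ranges in the mature cells of all 3 libraries, while Hspa5 in mature cells was lowest in WT.

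The enzymes and cofactors behaved likewise. Pdia4, a disulfide isomerase, had 146.2, 279.5 and 251.9 CPM in promyelocyte-like cells of KO, Het and WT, against 5.97, 4.92 and 1.94 CPM in mature cells (log2 ratio 5.47 ± 0.35). Manf, a secreted ER protein that binds BiP, had 296.4, 470.6 and 412.5 CPM against 19.20, 18.05 and 5.82 CPM (4.69 ± 0.34). Creld2, an ER protein of the disulfide isomerase kind that stress induces, had 46.63, 98.80 and 73.49 CPM against 4.69, 4.10 and 20.36 CPM. Its log2 ratio was 3.05 ± 0.44 (adjusted p = 1.0e-04, edgeR), and the WT mature cells were above those of both other libraries. For each of these 3 genes every promyelocyte-like sum lay above every mature sum.

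**Figure D1:**
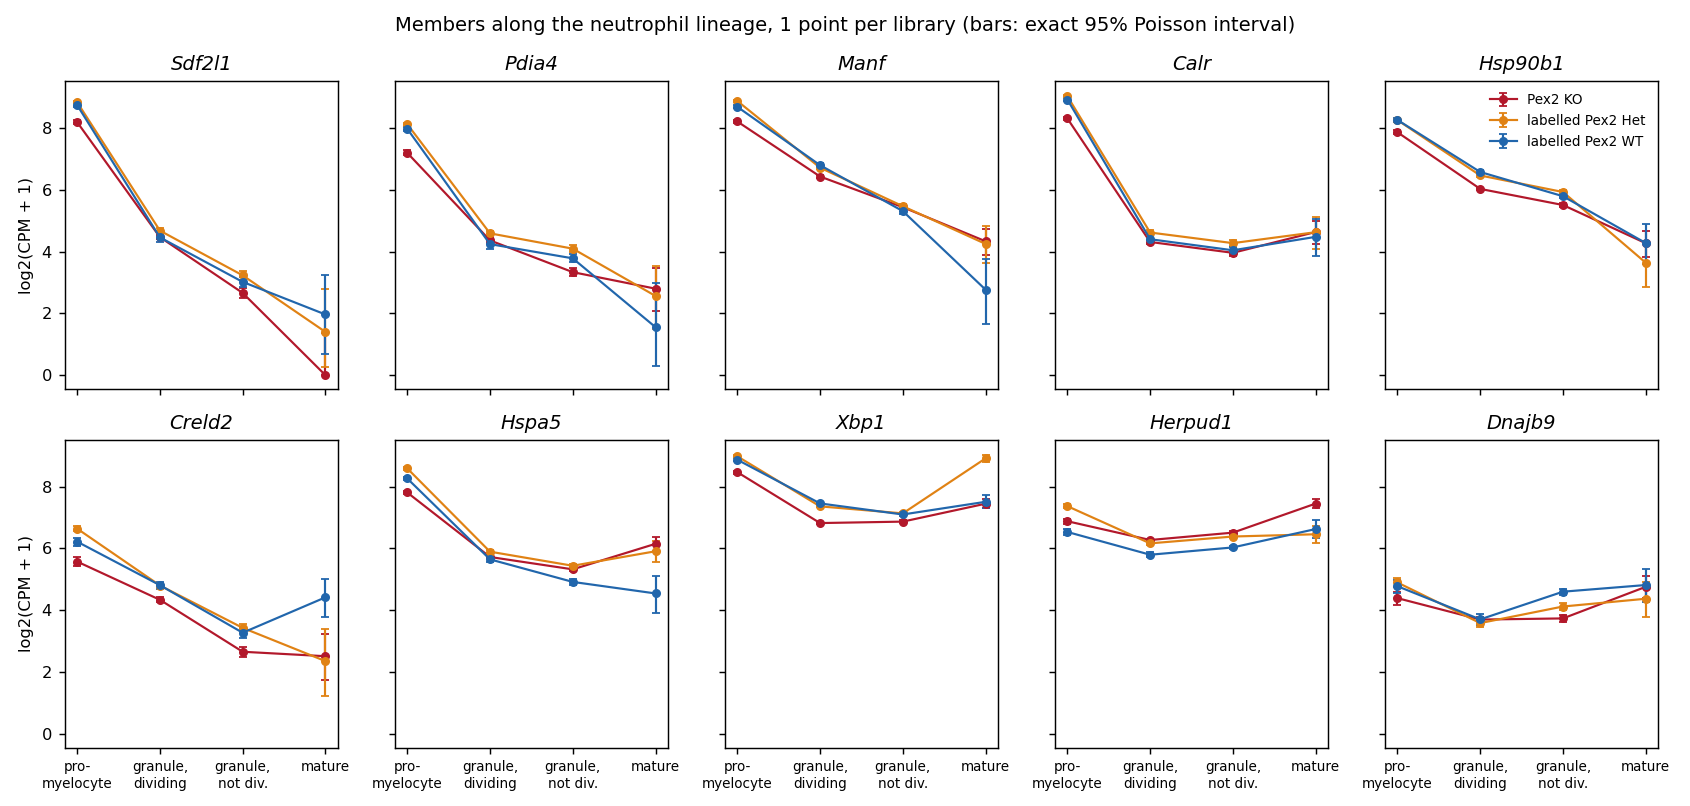
Level of each member (log2 of CPM + 1, y axis) in 4 stages of the neutrophil lineage (x axis, early to late), with 1 line per library and exact 95% Poisson bars that cover counting error only. Sdf2l1, Pdia4, Manf, Calr, Hsp90b1, Creld2 and Hspa5 are highest in promyelocyte-like cells in each library and drop at the granule stage. Xbp1, Herpud1 and Dnajb9 stay within a narrower band, in which Xbp1 is lower at the granule stage than in promyelocyte-like cells.

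Levels were low already at the granule stage, in cells that express Ltf, Camp and Ngp. Sdf2l1 had 21.2, 24.7 and 21.0 CPM in dividing granule-stage cells of KO, Het and WT and 5.32, 8.40 and 7.12 CPM in non-dividing ones. Calr was at 18.9, 23.6 and 20.2 CPM in the dividing cells, close to its level in mature cells. Manf kept more, with 85.5, 104.4 and 110.5 CPM in dividing and 42.4, 43.4 and 38.8 CPM in non-dividing granule-stage cells. The plot of levels along the lineage shows this drop in each library.

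Between promyelocyte-like and mature cells, Xbp1, Herpud1 and Dnajb9 did not follow the chaperones. Xbp1 did drop at the granule stage, to means of 150.1 ± 33.4 CPM in dividing and 130.5 ± 12.8 CPM in non-dividing cells (SD, n = 3 libraries). Every promyelocyte-like value of Xbp1 lay above every granule-stage value, and every mature value lay above every non-dividing one. Xbp1 had 353.6, 505.0 and 467.6 CPM in promyelocyte-like cells, against 173.7, 482.3 and 181.3 CPM in mature cells, and the Het mature cells stood well above the other libraries. Its log2 ratio was 0.81 ± 0.25 (adjusted p = 0.012, edgeR), below the median of all genes, and it was -0.18 with TMM factors (adjusted p = 0.57). Without the WT library it was 0.54 (adjusted p = 0.061), and with marker minimums doubled -0.082. Herpud1, a membrane protein of ER-associated degradation, had 116.8, 164.3 and 91.61 CPM against 174.1, 86.95 and 97.90 CPM, and its log2 ratio of 0.06 ± 0.27 did not pass the test (adjusted p = 0.84). Dnajb9, a J-domain cofactor of BiP, had 19.97, 28.79 and 26.40 CPM against 26.03, 19.69 and 27.14 CPM (0.02 ± 0.31, adjusted p = 0.95). With TMM factors both were lower in promyelocyte-like cells, Herpud1 by a log2 ratio of -0.93 (adjusted p = 0.0066) and Dnajb9 of -0.97 (adjusted p = 0.011).

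Counted as UMIs per cell in place of CPM, all 10 members were higher in promyelocyte-like cells in 3 of 3 libraries, since these cells held several-fold more UMIs in all. A promyelocyte-like cell had 17.1, 17.9 and 9.90 Xbp1 UMIs on average in KO, Het and WT, against 0.929, 2.03 and 0.668 in a mature cell. Dnajb9 had 0.963, 1.02 and 0.559 UMIs per cell against 0.139, 0.0830 and 0.100. Cell size and capture cannot be told apart in such counts.

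The second pair of stages came from the B lineage, where surrogate light chain pre-B-like cells (Igll1 and Vpreb1; 23, 273 and 441 cells in KO, Het and WT) were set against immature B-like cells (Ms4a1 and Ighd; 445, 370 and 387 cells). Here 1 member was higher and 2 were lower, where 26.6% of 8771 genes tested were higher and 22.5% lower. The members' median log2 ratio was -0.13 and that of all genes 0.02. Sdf2l1 was again the member that was higher, with 81.9, 90.3 and 107.8 CPM in pre-B-like cells against 30.5, 67.6 and 43.7 CPM in immature B-like cells (log2 ratio 0.93 ± 0.20, adjusted p = 0.0047, edgeR). Xbp1 was lower, with 48.2, 87.8 and 78.4 CPM against 119.0, 152.5 and 138.3 CPM (-0.88 ± 0.12, adjusted p = 4.0e-04). Hsp90b1 was lower too, with 139.7, 183.5 and 184.8 CPM against 201.7, 281.8 and 277.2 CPM (-0.59 ± 0.09, adjusted p = 7.4e-04). All 3 differences in CPM had 1 direction in 3 of 3 libraries. Counted as UMIs per cell, all 10 members were higher in pre-B-like cells in 3 of 3 libraries, which turned the direction of Xbp1 (mean log2 ratio 0.34 ± 0.18, SD) and Hsp90b1 (0.73 ± 0.19). Pre-B-like cells held more UMIs in all, with a median of 15292, 13723 and 7994 in KO, Het and WT, against 5892, 5666 and 3595 in immature B-like cells. In Leiden clusters made without the members, the largest cluster of these pre-B-like cells was another in each library. It was cluster 6 in KO (30.4%), 30 in Het (33.3%) and 7 in WT (31.7%), and the markers of cluster 6 named it later pre-B-like. The class may thus differ in make-up between the libraries that serve as replicates, which was not tested.

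The other 7 members did not pass the test in the B lineage, with log2 ratios between -0.28 for Pdia4 and 0.36 for Creld2. Without the KO library, where the pre-B-like cells were only 23, 5 members were lower, among them Herpud1 (-0.35, adjusted p = 3.1e-06). In that fit 27.2% of all genes were lower. With gates set on cells thinned to 3000 UMIs, 3 members were lower, where 20.6% of all genes were. Shallower cells were left out there, and the sums kept all UMIs of the gated cells, so depth was not made equal. Calr was among these members (-0.41, adjusted p = 0.027, against -0.20 and 0.26 with the main gates). Without a library block 1 member was lower (11% of all genes), and without the Het library 2 were higher (18.1% of all genes).

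**Figure D2:**
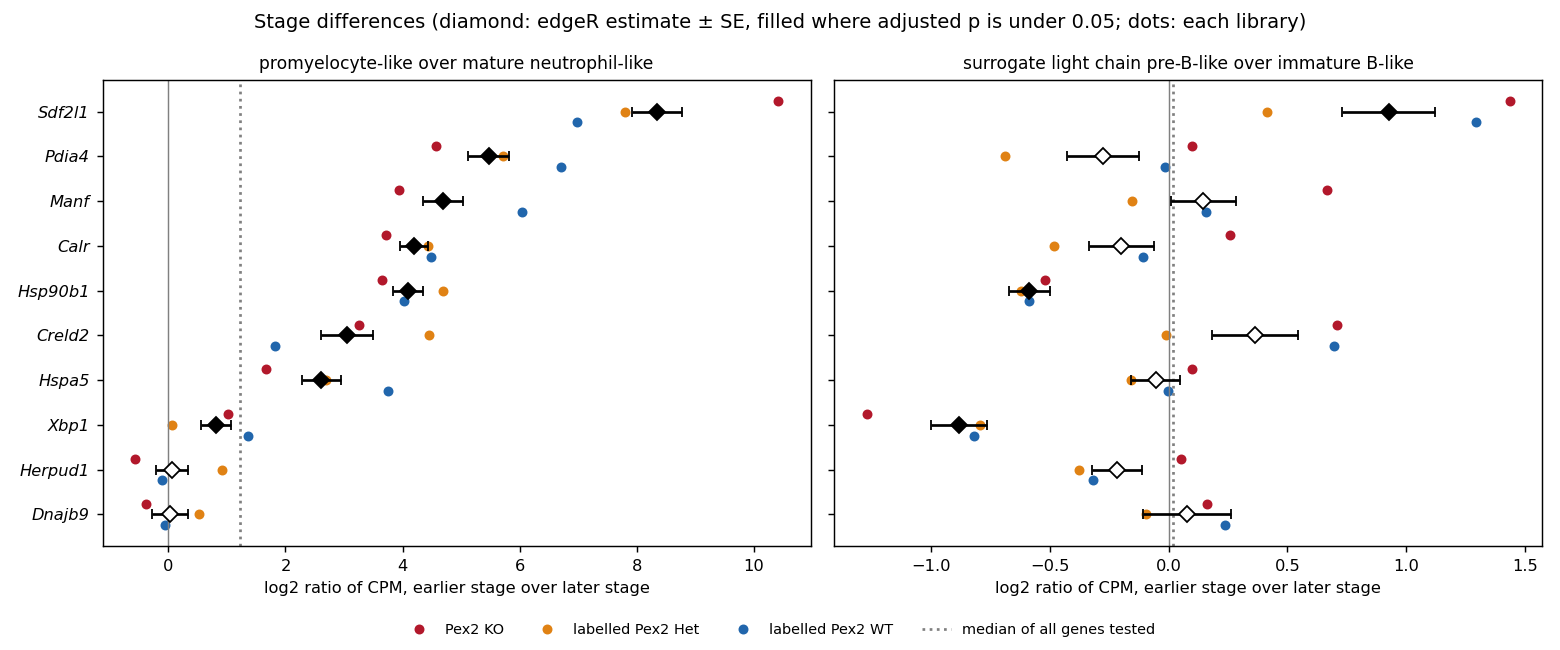
Log2 ratio of the earlier over the later stage (x axis) for each member, in the neutrophil lineage (left) and the B lineage (right). Diamonds are edgeR estimates ± SE, filled where the adjusted p is under 0.05, dots are the libraries, and the dotted line is the median of all genes tested (1.23 and 0.02).

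The difference between the 2 stage contrasts was tested as an interaction, a test chosen after seeing the data. It was called for 8 of 10 members, all but Herpud1 and Dnajb9, and for 76.4% of the 8861 genes tested, so the call alone does not set the members apart. The log2 difference of differences was 7.37 ± 0.52 for Sdf2l1, 5.68 ± 0.39 for Pdia4 and 4.65 ± 0.26 for Hsp90b1. Xbp1 had 1.72 ± 0.32 (adjusted p = 4.9e-04, edgeR), with its 2 stage differences on opposite sides of 0. These values carry the shift between scalings of the neutrophil contrast given above.

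Across the 12 classes with at least 20 cells in each library, 5 members had their highest mean level in promyelocyte-like cells: Hspa5, Calr, Sdf2l1, Creld2 and Manf. Sdf2l1 averaged 392.7 ± 88.1 CPM there (SD, n = 3 libraries), and monocyte-like cells came next with 172.0 ± 11.8 CPM. Calr averaged 442.5 ± 110.0 CPM in promyelocyte-like and 389.6 ± 87.4 CPM in basophil and mast-like cells, a gap within the spread. Hsp90b1 and Pdia4 were highest in basophil and mast-like cells, another granule-storing type (49, 34 and 36 cells). Hsp90b1 had 346.9, 377.7 and 357.8 CPM there in KO, Het and WT, above its promyelocyte-like level in each library. Pdia4 averaged 254.4 ± 90.8 CPM there and 225.9 ± 70.3 CPM in promyelocyte-like cells, which overlap.

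Xbp1 had a different order. Macrophage-like (498.4 ± 191.7 CPM), monocyte-like (471.4 ± 105.0 CPM) and promyelocyte-like cells (442.1 ± 78.9 CPM) led, with differences well within their SD (n = 3 libraries). Surrogate light chain pre-B-like (71.5 ± 20.7 CPM) and erythroid-like cells (56.8 ± 21.0 CPM) were last. Dnajb9 varied least, from 11.7 ± 0.6 CPM in dividing granule-stage cells to 37.8 ± 11.8 CPM in macrophage-like cells. Herpud1 was highest in the B lineage. It averaged 1256 ± 492.0 CPM in later pre-B-like cells (B-lineage cells with neither surrogate light chain nor immature B markers), 793.2 ± 347.7 CPM in immature B-like cells and 721.8 ± 440.5 CPM in surrogate light chain pre-B-like cells. Those 3 overlap, and the next class, basophil and mast-like, averaged 134.6 ± 49.4 CPM.

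**Figure D3:**
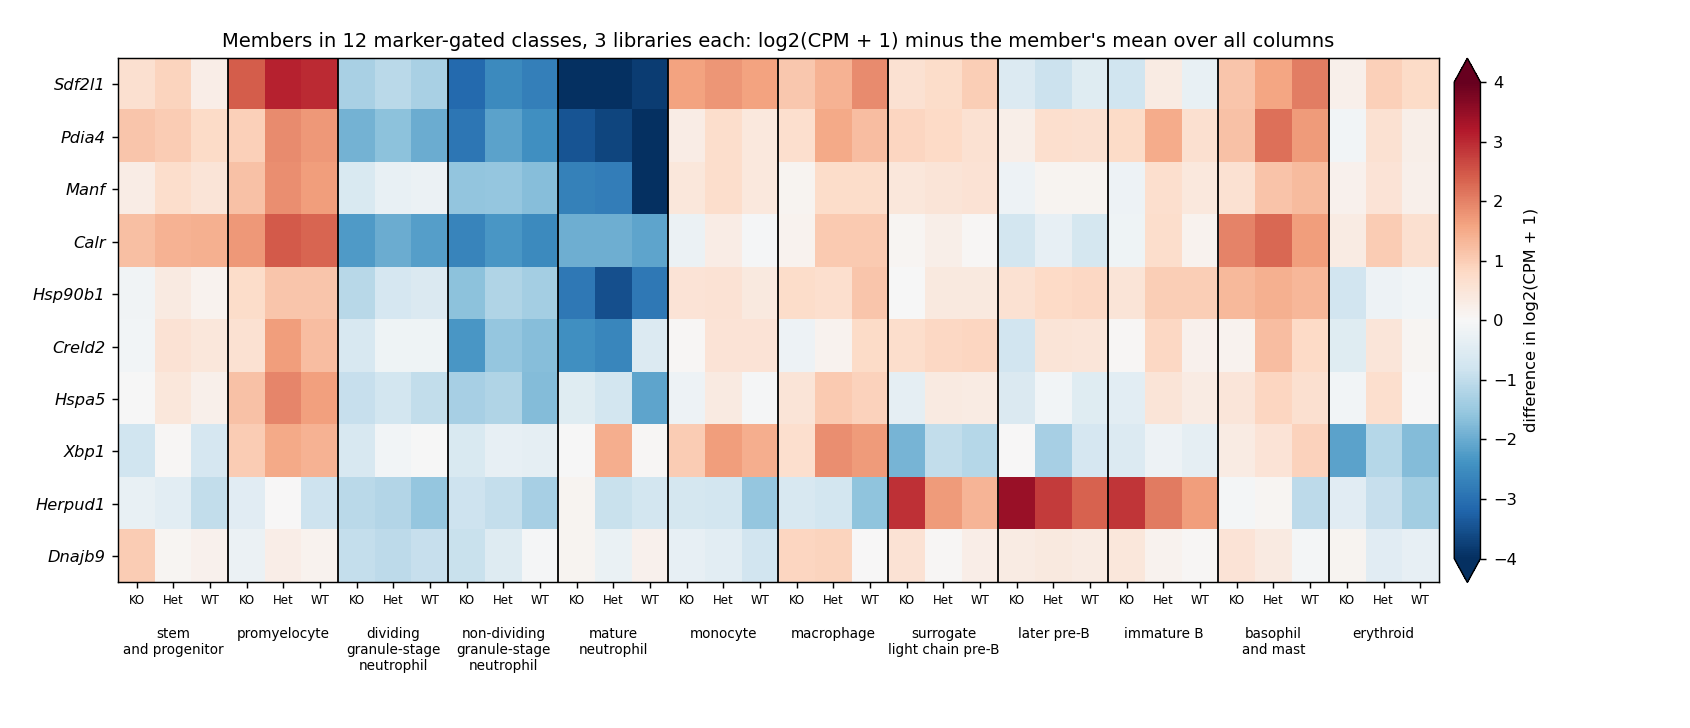
Members (rows) in 12 classes with 3 libraries each (columns), coloured by log2(CPM + 1) minus the member's own mean, with red above and blue below it. The promyelocyte block is red and the granule-stage and mature neutrophil blocks blue for the upper 7 members, and Herpud1 is red in the 3 B-lineage blocks.

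Over the 27 sums of 9 classes and 3 libraries, log2(CPM + 1) of Pdia4 had the highest correlation with the mean of the other members (Pearson r = 0.97), and Hsp90b1 (0.92), Manf (0.90), Calr (0.89), Sdf2l1 (0.88), Hspa5 (0.86) and Creld2 (0.85) followed. Dnajb9 (0.37), Xbp1 (0.24) and Herpud1 (0.14) were apart. The sums of 1 library share its depth and animals, so these values are descriptions. Of 9037 other genes, the 10 whose pattern was most like the members' mean included Hyou1 (0.97), Pdia6 (0.94), Accs, Slc39a6, Fkbp1a, As3mt, Tmed9 and Selenos (0.92). Hyou1 is an ER chaperone and nucleotide exchange factor for BiP, and Pdia6 a disulfide isomerase. Both were in the top 10 again after each library was centred, with 3 of the other 8.

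Other genes of the pathway were taken by list. Of all genes tested 61.8% were higher and 17.7% lower in promyelocyte-like cells, or 42.1% and 33.9% with TMM factors. Of 13 chaperone cofactors tested, 13 were higher in promyelocyte-like than in mature cells (median log2 ratio 3.42), and Txndc5, a disulfide isomerase, had 93.9, 102.3 and 128.7 CPM in promyelocyte-like cells of KO, Het and WT against 0.427, 0.0 and 2.91 CPM in mature ones. All 18 genes of translocation and glycosylation tested were higher (median 2.76). With TMM factors 12 of the 13 cofactors and 15 of these 18 were higher and none was lower. Ddost, a subunit of the oligosaccharyltransferase, had 662.1, 733.7 and 628.0 CPM against 7.25, 8.20 and 12.60 CPM. ER-associated degradation had 7 higher and 0 lower of 10 (median 0.83, below that of all genes), and with TMM factors 1 higher and 2 lower. The sensors had 4 higher and 1 lower of 6, and with TMM factors 3 higher and 2 lower. The PERK arm, the branch of the stress response that works through ATF4, had 1 higher and 2 lower of 6 (median -0.27). Its Asns, asparagine synthetase, was higher (log2 ratio 2.25) and its Sesn2 lower (-2.54). Cytosolic heat shock genes had 5 higher of 7 (median 3.97), and with TMM factors 4 higher and 2 lower. Scaled by class totals, the shares called in the degradation, sensor and heat shock lists were near those of all genes. With TMM factors the degradation list fell below them, with 1 of 10 higher where 42.1% of all genes were. The median of the heat shock list was above that of all genes (3.97 against 1.23, and 2.98 against 0.24 with TMM factors). Hspe1, a mitochondrial co-chaperonin placed in that list, had a log2 ratio of 5.50.

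In the B lineage the lists split, where 26.6% of all genes tested were higher and 22.5% lower. Cytosolic heat shock genes were higher in 8 of 8 tested (median log2 ratio 0.89, Hsp90aa1 1.35), and translocation and glycosylation in 7 of 18 with 1 lower. Sensors were lower in 5 of 6 (median -0.50). Ern1, the gene of IRE1, had 24.1, 10.3 and 17.0 CPM in pre-B-like cells of KO, Het and WT, against 39.3, 25.1 and 38.9 CPM in immature B-like cells (-1.14). ER-associated degradation was lower in 4 of 10 and higher in 0, and Edem3, a mannosidase of that route, had 48.2, 88.5 and 88.2 CPM against 327.5, 367.5 and 397.5 CPM (-2.21). Chaperone cofactors had 5 higher and 2 lower of 13, and the PERK arm 1 higher and 2 lower of 4.

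The last question was whether the members differ in the KO library. With 1 library per genotype no test is possible, and animal, depth and genotype cannot be told apart, nor sex and genotype between KO and WT. Ddx3y had 3 UMIs in KO and 2 in Het, against 7956 in WT, so KO and Het did not differ in this Y-linked gene. A member was called past a rule of size where KO was at least 1.5-fold above, or at least 1.5-fold below, the Het and the WT value alike, with exact conditional binomial intervals (95%, counting error only) that left out 1. Over 9 classes with at least 50 cells in each library, 85 pairs of member and class were high enough to compare. KO was past the rule on the low side in 9 and on the high side in 4. Over all genes, 5.96% to 10.5% per class were past the rule on the low side and 2.92% to 12.1% on the high side, so these totals are near the background. KO lay below both other libraries in 53 pairs, above both in 14 and between them in 18, where 27.5% to 46.6% of all genes per class were below both and 36.2% to 47.8% above both. No member was past the rule in dividing granule-stage cells (background 6.47% low and 2.92% high), non-dividing granule-stage cells (6.74% and 3.67%), monocyte-like cells (10.3% and 5.19%) or erythroid-like cells (8.13% and 6.81%). By the same fold and interval, in this 1 comparison, Het was above WT in 3 of 10 members in immature B-like cells (5.19% of genes). It was in 3 of 7 in mature neutrophil-like (8.77%) and 2 of 10 in erythroid-like cells (6.21%). Other classes had 0 or 1 (3.84% to 7.01% of genes). Het was below WT in 1 member, in later pre-B-like cells (5.56%).

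In promyelocyte-like cells 3 of 10 members were past the rule on the low side and none on the high side, against 10.5% and 4.47% of 8416 genes. Pdia4 in KO was 0.523 of Het (0.491 to 0.558) and 0.581 of WT (0.540 to 0.624). Creld2 was 0.472 of Het (0.421 to 0.528) and 0.634 of WT (0.557 to 0.723), and Calr 0.606 of Het (0.579 to 0.633) and 0.653 of WT (0.621 to 0.686). The KO value was below both in 9 of 10 members, where 46.4% of all genes were, and Herpud1 lay between. The members' median log2 ratio was -0.66 over Het and -0.47 over WT, against -0.06 and -0.06 for all genes, while Het over WT had a member median of 0.14. The same Leiden cluster held most promyelocyte-like cells of each library (59.3%, 64.1% and 66.5% in KO, Het and WT). The class's own markers were lower in KO too, with a sum of 48573 CPM in KO, against 66635 CPM in Het and 70444 CPM in WT. The granule genes Ltf, Camp, Ngp and Cebpe summed to 20849, 17312 and 20069 CPM over the class, but in the median cell to 15456 CPM in KO, against 6551 CPM in Het and 8123 CPM in WT. The part of these marker differences in the members' values was not tested. With marker minimums doubled, the log2 ratio of KO over the nearer library was -0.35 for Calr and -0.57 for Pdia4, in place of -0.61 and -0.78, and neither was past the rule.

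In macrophage-like cells (118, 59 and 70 cells) 3 members were past the rule on the low side and none on the high side, against 6.96% and 8.34% of genes. Xbp1 had 280.4 CPM in KO, against 640.4 CPM in Het and 574.4 CPM in WT, Calr 106.6 against 199.4 and 200.7 CPM, and Manf 139.3 against 216.0 and 217.5 CPM. The KO library was thus well below a close pair of Het and WT values for all 3. The class's own macrophage markers summed to 20815 CPM in KO, against 30752 CPM in Het and 27166 CPM in WT. Mature neutrophil markers there summed to 1988 CPM in KO, against 1313 and 1450 CPM, and the part of either in these values was not tested. Manf was not past the rule with marker minimums halved or doubled (log2 ratio over the nearer library -0.57 and -0.52, in place of -0.64). In immature B-like cells Hspa5 (72.9 against 140.9 and 123.3 CPM) and Manf (112.9 against 209.3 and 174.2 CPM) were past the rule on the low side, where 7.36% of genes were. In mature neutrophil-like cells no member was, against 5.96% of genes. In later pre-B-like cells it was Creld2 (17.3 against 43.4 and 43.0 CPM, with 12 UMIs in KO), where 9.74% of genes were. Its log2 ratio over the nearer library was -1.27, and -0.29 without dividing cells.

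**Figure D4:**
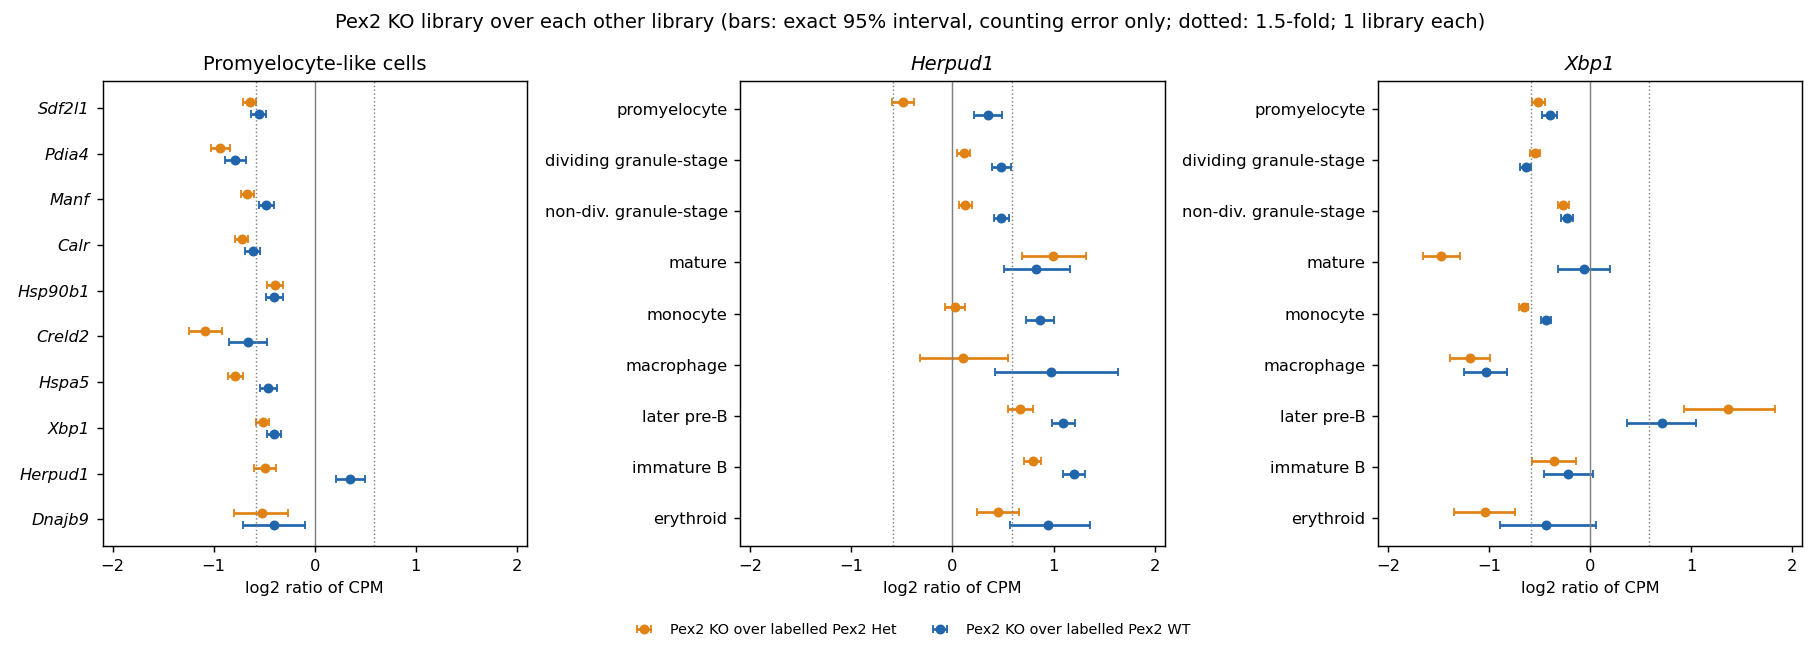
Log2 ratio of CPM in the KO library over the library labelled Het (orange) and WT (blue), with exact 95% intervals for counting error. Left, the 10 members in promyelocyte-like cells, 9 of them below both. Middle and right, Herpud1 and Xbp1 in 9 classes, where Herpud1 is above both in 8 and Xbp1 below both in 8.

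Herpud1 went the other way. It was above both other libraries in 8 of 9 classes, in each of which 36.2% to 47.8% of all genes were above both. It was past the rule on the high side in 3, against 12.1% of genes in mature neutrophil-like, 9.07% in later pre-B-like and 4.71% in immature B-like cells. Immature B-like cells had 1183 CPM in KO, against 681.9 CPM in Het and 514.8 CPM in WT. Later pre-B-like cells had 1799 CPM, against 1129 and 840.0 CPM, and mature neutrophil-like cells 174.1 CPM, against 86.95 and 97.90 CPM. Xbp1 was below both other libraries in 8 of 9 classes, where 27.5% to 46.6% of all genes per class were. In later pre-B-like cells Xbp1 was past the rule on the high side, with 179.8 CPM in KO against 69.5 CPM in Het and 110.1 CPM in WT. Its log2 ratio of KO over the nearer library there was 0.71, but 0.057 with Leiden clusters in place of gates and 0.24 without dividing cells. Different Leiden clusters held most of 2 of these classes: for later pre-B-like cells cluster 37 in KO (63.3%) and cluster 4 in Het and WT (52.8% and 60.3%), for mature neutrophil-like cells cluster 43 in KO (96.3%) and cluster 22 in Het and WT (99.7% and 81.4%). The largest cluster of KO cells was also another than those of Het and WT for dividing granule-stage (45.8% in cluster 38), non-dividing granule-stage (48.1% in cluster 39) and monocyte-like cells (53.0% in cluster 32), which enter the counts over 9 classes. For immature B-like cells cluster 5 was the largest in each library, with 52.8%, 48.4% and 45.0% of cells in KO, Het and WT. Summed plasma cell markers (Jchain, Sdc1, Tnfrsf17 and Irf4) were 714.7, 667.5 and 574.8 CPM in later pre-B-like cells of KO, Het and WT. Jchain had only 26, 32 and 44 UMIs in the whole KO, Het and WT libraries. Irf4 was among the 10 leading genes of surrogate light chain pre-B-like cells, so the sum is not particular to plasma cells. The part of these markers in the KO differences was not tested.

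Among the other pathway lists KO was past the rule on the low side in 13 of 44 pairs of PERK-arm gene and class and on the high side in 0. For chaperone cofactors the counts were 5 lower and 2 higher of 105, for translocation and glycosylation 7 and 3 of 161, for ER-associated degradation 2 and 1 of 89, for sensors 2 and 2 of 53, and for cytosolic heat shock 4 and 5 of 65. None of these 5 lists exceeded the range of all genes per class given above, 5.96% to 10.5% on the low and 2.92% to 12.1% on the high side. The PERK arm in promyelocyte-like cells had a median log2 ratio of -1.84 over Het and -0.55 over WT. For the 2 genes of this list named above, Het stood apart there. Sesn2 had 6.03, 34.7 and 8.85 CPM and Asns 83.8, 178.8 and 101.3 CPM in KO, Het and WT. The other genes of the list are not given here. The pairs repeat the same genes over classes of the same libraries and are not independent.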

How the data were processed

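Per the labels' protocols, livers of newborn mice were pressed through a strainer, hepatocytes spun down, red cells lysed, and viable CD45+ cells sorted, fixed and probed with the 10x Flex assay. Per the submitters' processing notes, the authors made the deposited UMI counts with Cell Ranger 7.0.0 against mm10. Neither the probe set version nor other settings are stated in these sources. The matrices hold whole-number counts, not normalised.

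Members, pathway lists and markers were chosen with earlier results of these data known. Scrublet marked 298, 186 and 273 doublets in KO, Het and WT, and 85, 70 and 78 barcodes under 1000 UMIs were left out. Cells were gated on summed CPM of marker lists (minimums of 300 to 30000 CPM, at least 3 marker UMIs, 2 for B stages). Cells meeting gates of more than 1 lineage (150, 294 and 301) or placed in no class (559, 560 and 867) were left out, which kept 7153, 6890 and 8081 cells in 15 classes. Cells placed in no class met no gate, or met the B-lineage gate without a clear stage, or met both the mature and the granule-stage neutrophil gate. UMIs were summed per library and class. Stage contrasts used edgeR 4.0.16 (R 4.3.3) on 6 sums scaled by class totals, for genes with at least 30 UMIs and a mean of 10 CPM, with the library as a block. Each library gave both stages, and the block pairs its sums. Code was tested on simulated data. KO ratios and levels carry exact intervals at 95%, for counting error only, and the same floors of 30 UMIs and 10 CPM held. Genes were named by a rule: all members, the 2 genes of each list with the largest change past the threshold in a stage contrast (some of them are described in full), and the 10 most like the members, of which some are not reported here. Leiden clusters (scanpy 1.11.5, leidenalg 0.10.2) without the members served as an alternative, with DESeq2 1.42.0 and TMM as other scalings. Positions and promoters came from RefSeq tables of GRCm38.p6, and Manf is not in the promoter table. Of the markers, 4 are not among the probed genes.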

Additional observations from a re-analysis of the deposited data

Results flagged for a closer look

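Xbp1 moved in opposite directions in the KO library in different classes. Its log2 ratio of KO over Het was -1.19 in macrophage-like cells and 1.37 in later pre-B-like cells, and both values were past the rule of size against Het and WT. In later pre-B-like cells it was not past the rule with Leiden clusters in place of gates. The difference between the classes was not tested, since each genotype has 1 library, and the KO cells of the later pre-B-like class were mostly of a Leiden cluster that held 365 KO, 6 Het and 0 WT cells.

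For 8 members the stage difference of the neutrophil lineage differed from that of the B lineage in an edgeR interaction test over 3 libraries. The neutrophil minus B difference of log2 ratios was 7.37 for Sdf2l1, 5.68 for Pdia4, 4.65 for Hsp90b1, 4.46 for Manf, 4.35 for Calr, 2.62 for Creld2, 2.6 for Hspa5 and 1.72 for Xbp1. Of all genes tested 76.4% were called, and with TMM factors the stage differences of Xbp1 were -0.18 in the neutrophil and -0.89 in the B lineage.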

How the results depend on the processing

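Counts of members higher in promyelocyte-like cells were 7 or 8 under every alternative run, and counts lower were 0, except 2 with TMM factors and 2 with DESeq2, where Herpud1 was -0.93 and -0.94 and Dnajb9 -0.97 and -0.98. Of all genes, 39.3% to 65.9% were higher and 12.1% to 33.9% lower over these alternatives. Xbp1 was -0.18 with TMM, -0.19 with DESeq2 and -0.082 with marker minimums doubled. Doubling also gave Dnajb9 -0.21 and Herpud1 -0.15, halving gave Herpud1 -0.019, Leiden clusters gave Herpud1 -0.0058, and leaving out the 10 highest genes gave Dnajb9 -0.036. Without 1 library each, Dnajb9 ran from -0.22 to 0.25 and Herpud1 from -0.35 to 0.42. In the B lineage, without 1 library each, 1 to 2 members were higher and 2 to 5 lower. Of all genes 17.5% to 30.2% were higher and 13.4% to 27.2% lower in those fits. Without a library block 1 member was lower (11% of all genes). With gates set on thinned cells 3 were (20.6% of all genes), with Calr at -0.41. Small B-lineage values changed sign. Hspa5 was 0.028 with all classes fitted together, 0.015 with minimums halved and 0.0089 without the block. Dnajb9 was -0.058 with gates set on thinned cells and -0.079 with minimums halved. Herpud1 was 0.033 with gates set on thinned cells. Without 1 library each, Hspa5 ran from -0.087 to 0.029, Calr from -0.32 to 0.032, Pdia4 from -0.40 to 0.031, Dnajb9 from -0.011 to 0.20 and Manf from -0.012 to 0.37. Per cell, Xbp1 was 0.34 and Hsp90b1 0.73, with no test, an alternative added after seeing the data. With minimums doubled, Leiden clusters or dividing cells left out, the B contrast was not run, since under 20 KO cells were left. Pairs with KO past the rule of size on the low side were 14 of 85 with minimums halved and 16 of 86 with Leiden clusters. On the high side they were 2 of 84 with minimums doubled and 2 of 85 without dividing cells. That last setting kept the dividing granule-stage class. The share of all genes past the rule is not given for these settings, so the counts have no background beside them. Per cell, 9 members were highest in promyelocyte-like cells. With TMM, 8 list genes were lower in promyelocyte-like cells, against 3. After centring each library, 5 of the 10 most alike genes were in common. Stage contrasts were paired by library. No paired analysis was possible because, between genotypes, samples share only replicate number 1. Depth limits low values: a gene at 0 UMIs in mature neutrophil-like cells may still be at 1.28 CPM in KO, 2.46 in Het and 2.91 in WT, and classes with smaller sums have higher limits. Genotype comparisons rest on 1 library each and have no replicate check.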

Other observations

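Small classes outside the comparisons also held members at high levels. Eosinophil-like cells (8, 12 and 7 cells in KO, Het and WT) had 567.2, 519.9 and 632.8 CPM of Hsp90b1 and 386.2, 282.8 and 337.5 CPM of Sdf2l1. Plasmacytoid dendritic-like cells (18, 32 and 59 cells) had 510.5, 528.4 and 471.5 CPM of Xbp1. In the same cells Herpud1 was at 1332, 465.6 and 317.0 CPM, highest in KO as in the B-lineage classes.

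Creld2 in mature neutrophil-like cells had 11, 5 and 21 UMIs in KO, Het and WT, or 4.69, 4.10 and 20.36 CPM. Hspa5 there had 164, 72 and 23 UMIs, or 69.99, 59.06 and 22.29 CPM, lowest in the library where Creld2 was highest.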
